A study of Mus musculus with 6 samples.

Results

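Purinergic receptors are the proteins through which cells sense ATP and other nucleotides in the fluid around them. Transcript levels of 10 of them were followed in microinjected dorsal root ganglia (DRGs), the clusters of sensory nerve cell bodies beside the spinal cord. They were the ion channel genes *P2rx2*, *P2rx3*, *P2rx4*, *P2rx5*, *P2rx6*, and *P2rx7*, and the G protein-coupled receptor genes *P2ry1*, *P2ry6*, *P2ry12*, and *P2ry14*. They were found by their symbols among the 48440 rows of the deposited count table. No measured value entered the rule, but the genes were chosen with earlier results of these data known. All 10 were among the 18593 genes with enough counts to be tested.

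The RNA sequencing asked which genes change in the DRGs of male mice when *NIS-lncRNA*, a long noncoding RNA linked to nerve injury, is overexpressed. Wild-type mice, with no nerve injury named in the labels, received AAV5-*Gfp* or AAV5-*V1+V2* in the L3/4 DRGs of 1 side, with 3 libraries per group. AAV5-*Gfp*, the control, is an adeno-associated virus that carries green fluorescent protein. AAV5-*V1+V2* combines the viruses AAV5-*V1* and AAV5-*V2*, 1 for each transcript variant of *NIS-lncRNA*. The text deposited with the data gives harvest at 5 weeks and also names a time of 4 weeks after microinjection. Each group had its own virus preparation, so that the transcripts carried and the preparation cannot be told apart. The labels do not say whether a library came from 1 animal or from several, and p-values therefore measure only the spread between these libraries.

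The P2X receptors are channels opened by ATP that let calcium and sodium into the cell. The P2Y receptors signal through G proteins and bind ADP, UDP, or sugar nucleotides as well as ATP. In the DRG, *P2rx3* is best known from small nociceptive neurons, alone or joined with *P2rx2*, whereas *P2rx4*, *P2rx7*, *P2ry6*, and *P2ry12* are best known from macrophages, microglia, and satellite glia.

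Total counts per library were between 32025612 and 34764282. The tissue label was checked with marker genes, and no listed neuronal, glial, or macrophage marker was at 0 in all libraries. The 12 pan-neuronal markers summed to between 9233 and 10100 CPM (counts scaled to a common library size by the TMM method) with AAV5-*Gfp* and to between 5850 and 8590 CPM with AAV5-*V1+V2*. All 12 had a negative log2 fold change and 3 fell (adjusted p under 0.05, edgeR's quasi-likelihood test), the neuronal genes *Rbfox3*, *Syt1*, and *Snhg11*, with log2 fold changes of -0.93, -0.73, and -0.62. The 17 macrophage markers summed to between 333 and 385 CPM with AAV5-*Gfp* and to between 805 and 2033 CPM with AAV5-*V1+V2*, and 14 of the 17 rose, among them *C1qa*, *C1qb*, and *Ptprc*, which all leukocytes express. Markers of other leukocytes moved with them, but those of mast cells did not. All 7 B and plasma cell markers rose (median log2 fold change 3.60), as did 7 of 8 T cell markers (3.26), 6 of 8 dendritic cell markers (1.35), and 2 of 8 neutrophil markers (0.84). Of 7 mast cell markers, 0 were called, with 1 higher at an unadjusted p under 0.05 and a median of -0.04. AAV5-*V1+V2* replicate 1 had the lowest neuronal and the highest macrophage sum of the 6 libraries. In such bulk tissue, fewer cells of a type and less RNA per cell cannot be told apart.

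Of the 10 receptors, *P2ry6* rose and none fell. By the same test, 10.1% of all genes tested rose, 5.27% fell, and 15.3% changed in either direction. At an unadjusted p under 0.05, 3 receptors were higher (*P2rx4*, *P2ry6*, and *P2ry14*) and 2 were lower (*P2rx3* and *P2rx6*). Over all 18593 genes tested, 3577 were then higher and 2878 lower. DESeq2 called *P2rx4* and *P2ry6* higher and *P2rx3* lower, beside 2405 higher and 1606 lower of the same 18593 genes. The median log2 fold change of the 10 was -0.12, beside -0.0003 for all genes tested. Levels did not overlap between the groups for 4 of the 10, beside 45.4% of all genes tested. Without AAV5-*V1+V2* replicate 1, the library that stood apart in its markers, 2 receptors were higher and 1 was lower. Over all 18897 genes tested in that fit, 1862 were higher and 1095 lower. The receptor with the largest fold change, *P2ry14*, was also the one with the fewest counts.

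**Figure D1:**
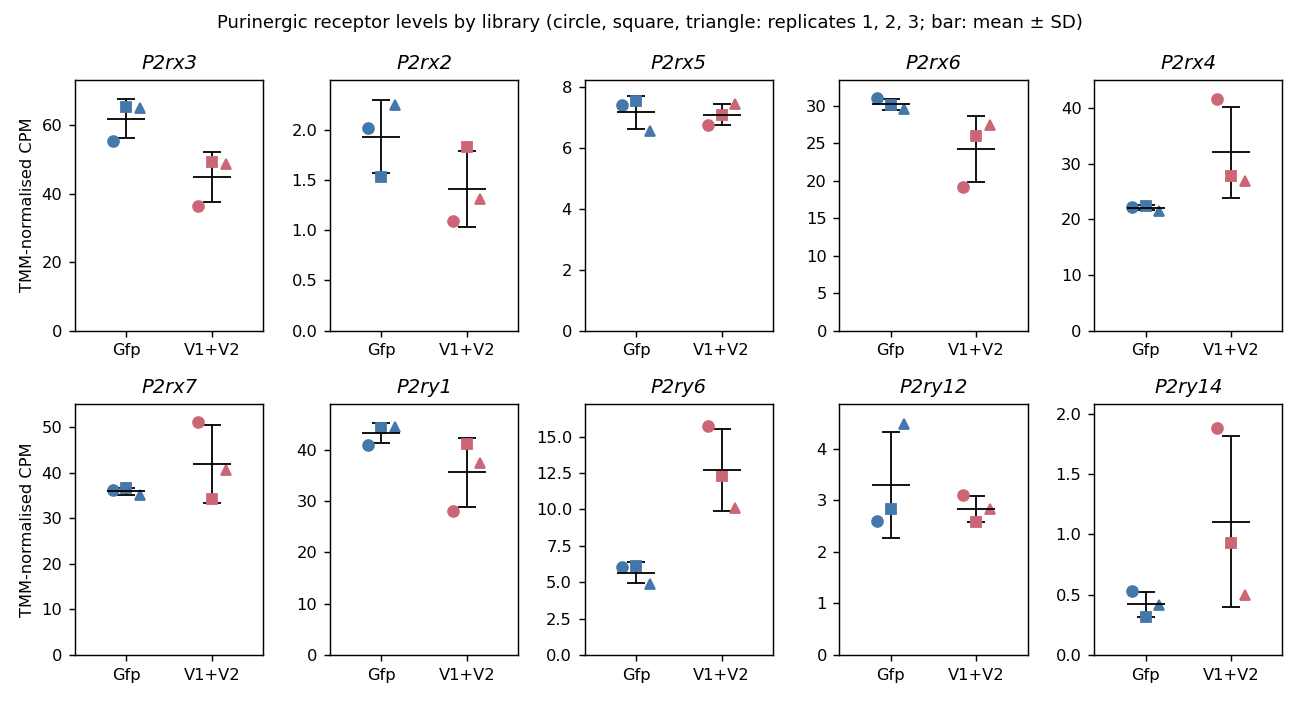
Levels of the 10 receptors in TMM-normalised CPM (linear axes from 0) in each library, with AAV5-*Gfp* in blue and AAV5-*V1+V2* in red, 3 libraries each. Symbols mark replicates 1, 2, and 3, and bars give mean ± SD. The groups do not overlap for *P2rx3*, *P2rx4*, *P2rx6*, and *P2ry6*, and AAV5-*V1+V2* replicate 1 (red circle) is lowest of its group for *P2rx3* and highest for *P2rx4*.

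*P2rx3*, the gene of the ATP-gated channel of nociceptors, had counts of 1789, 2265, and 2027 with AAV5-*Gfp* and of 1196, 1637, and 1671 with AAV5-*V1+V2*, given here and throughout in the order of the replicates. Every AAV5-*V1+V2* library was below every AAV5-*Gfp* library. Control libraries had a mean of 61.9 ± 5.62 CPM and AAV5-*V1+V2* libraries one of 44.7 ± 7.28 CPM (SD, n = 3 each), a log2 fold change of -0.47 ± 0.13 (SE). The adjusted p was 0.0510 by edgeR's quasi-likelihood test, with the Benjamini-Hochberg method applied over all genes tested, just short of the threshold of 0.05. The gene passed it when AAV5-*V1+V2* replicate 1 was left out (log2 fold change -0.33, adjusted p = 0.0336) and when AAV5-*V1+V2* replicate 3 was left out (-0.52, adjusted p = 0.0424), and not in the 4 fits that left out another library, with adjusted p between 0.0739 and 0.164.

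*P2rx2*, whose product joins with that of *P2rx3* in heteromeric channels, was far less abundant. It had 65, 53, and 70 counts with AAV5-*Gfp* and 36, 61, and 45 with AAV5-*V1+V2*. The groups overlapped, as 61 lay above 53. This gave a log2 fold change of -0.45 ± 0.25 (SE), close in size to that of *P2rx3* but with an adjusted p of 0.250 (edgeR's quasi-likelihood test). It was -0.29 without AAV5-*V1+V2* replicate 1.

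*P2rx6* encodes a subunit that works mainly in heteromers. Its counts were 1000, 1042, and 921 with AAV5-*Gfp* and 632, 866, and 942 with AAV5-*V1+V2*, or 31.0, 30.1, and 29.5 CPM against 19.2, 26.0, and 27.5 CPM. All 3 AAV5-*V1+V2* libraries were below all 3 controls in CPM, with replicate 1 farthest away. The log2 fold change was -0.32 ± 0.13 (SE, adjusted p = 0.135, edgeR's quasi-likelihood test), and -0.17 without AAV5-*V1+V2* replicate 1. Part of this gene's exons, 13.9% of their bases, lies under *Slc7a4* on the opposite strand, which had between 77 and 127 counts with AAV5-*Gfp* and between 38 and 89 with AAV5-*V1+V2*. The libraries were stranded, but how strand was used in counting is not given, and the part of these shared bases in the result was not tested.

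*P2rx5*, another ATP-gated channel gene of sensory neurons, had 240, 262, and 205 counts with AAV5-*Gfp* and 223, 236, and 256 with AAV5-*V1+V2*. The groups lay within the same range. Its mean was 7.19 ± 0.540 CPM (SD, n = 3) and 7.11 ± 0.343 CPM (SD, n = 3), and the log2 fold change was -0.02 ± 0.11 (SE). The sign of this value turned under some settings, so no direction can be given.

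*P2ry1*, a receptor for ADP that couples to phospholipase C, was the most abundant of the G protein-coupled receptors. It had 1320, 1535, and 1389 counts with AAV5-*Gfp* and 926, 1369, and 1286 with AAV5-*V1+V2*. AAV5-*V1+V2* replicate 2, at 41.1 CPM, lay within the range of the controls, and replicates 1 and 3 were below it. Its log2 fold change was -0.28 ± 0.14 (SE, adjusted p = 0.185, edgeR's quasi-likelihood test), and -0.13 without AAV5-*V1+V2* replicate 1. The antisense gene Gm37035, with between 24 and 36 counts in every library, covers 23.1% of the exon bases of *P2ry1*.

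The neuronal markers were lower in the same libraries. All 11 markers of nonpeptidergic nociceptors, the cells that carry most *P2rx3*, also had negative log2 fold changes (median -0.35), and *Gfra2* (-0.48), a receptor subunit for the growth factor neurturin, was among those that fell. Their sum was 1358, 1342, and 1551 CPM with AAV5-*Gfp* and 909, 1185, and 1194 CPM with AAV5-*V1+V2*. Each receptor was therefore also given relative to the markers within the same library. Per 1000 counts of the pan-neuronal markers, *P2rx3* had 5.78, 7.08, and 6.43 counts with AAV5-*Gfp* and 6.21, 6.07, and 5.67 with AAV5-*V1+V2*. On this scale the *P2rx3* groups overlapped, with a log2 ratio of -0.10 (exact two-sided permutation test, p = 0.4, n = 3 and 3). Against the nonpeptidergic nociceptor markers the log2 ratio of *P2rx3* was also -0.10 (exact permutation test, p = 0.2, n = 3 and 3).

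The same step brought *P2rx2*, *P2rx6*, and *P2ry1* to log2 ratios of -0.08, 0.04, and 0.08 per pan-neuronal marker count, with overlapping groups in each case. *P2rx5*, whose own log2 fold change was -0.02, stood apart among the neuronal genes. It had 0.776, 0.819, and 0.650 counts per 1000 pan-neuronal counts with AAV5-*Gfp* and 1.16, 0.875, and 0.869 with AAV5-*V1+V2*. All 3 AAV5-*V1+V2* libraries exceeded the 3 controls. The marker sum itself fell without overlap, so a gene whose level did not change can also come out higher on this scale. The test on this ratio cannot tell a change in the receptor from one in the markers. The log2 ratio of *P2rx5* was 0.37, and the exact permutation test gave p = 0.1 (n = 3 and 3), which is the smallest p that 3 against 3 libraries allow, and 0.25 after Benjamini-Hochberg adjustment over the 15 ratios tested.

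**Figure D2:**
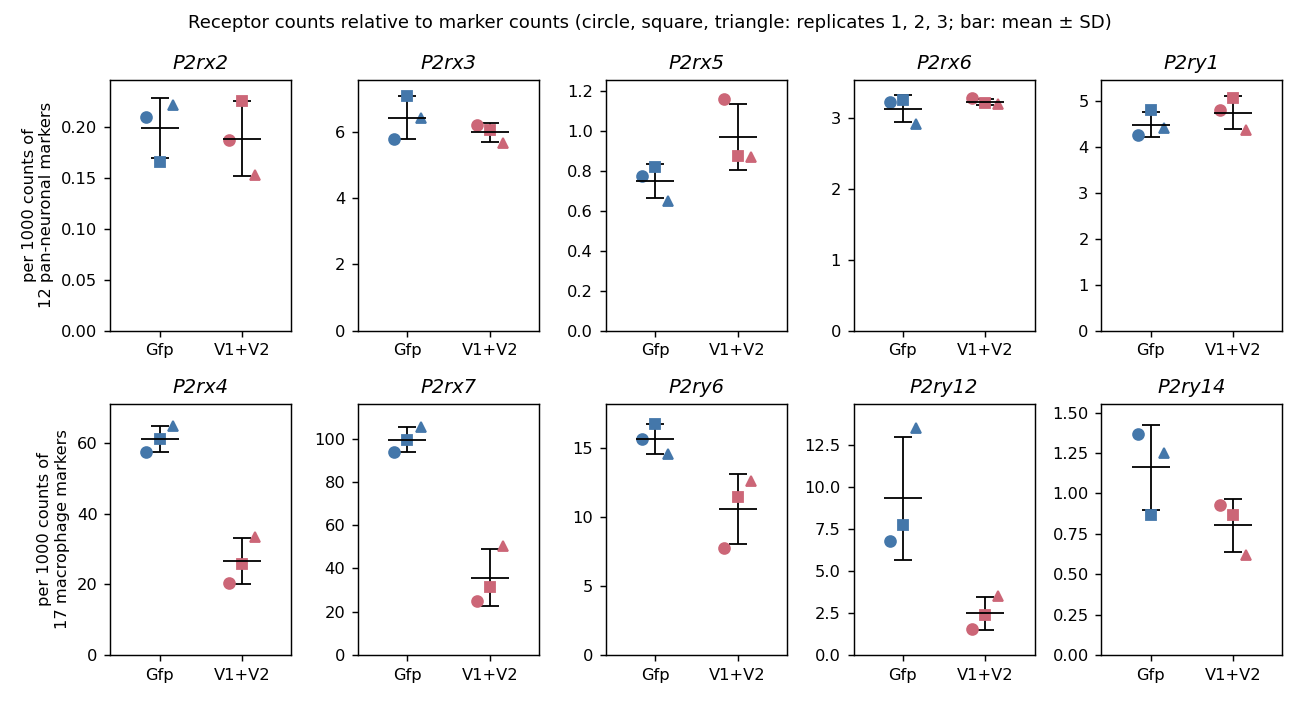
Counts of each receptor per 1000 counts of cell type markers in the same library (linear axes from 0), with the 12 pan-neuronal markers for the upper row and the 17 macrophage markers for the lower row. Symbols mark replicates 1, 2, and 3 and bars give mean ± SD (n = 3). In the upper row the groups overlap for every gene but *P2rx5*, and in the lower row *P2rx4*, *P2rx7*, *P2ry6*, and *P2ry12* are lower with AAV5-*V1+V2* in every library, which for *P2ry6* no longer holds when *Lyz2* and *Ptprc* are left out of the markers.

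Among the receptors known from myeloid cells, *P2ry6* rose. Its product is a receptor for UDP that triggers phagocytosis in microglia. It had 194, 212, and 151 counts with AAV5-*Gfp* and 517, 410, and 347 with AAV5-*V1+V2*. The lowest AAV5-*V1+V2* library was above the highest control. Mean levels were 5.66 ± 0.710 CPM and 12.7 ± 2.82 CPM (SD, n = 3 each), a 2.25-fold difference (log2 fold change 1.17 ± 0.18, SE, adjusted p = 0.0150, edgeR's quasi-likelihood test). The call was lost when AAV5-*Gfp* replicate 1, 2, or 3 was left out (adjusted p of 0.0513, 0.0815, and 0.0875), whereas the log2 fold change stayed between 0.99 and 1.32 in all 15 other fits.

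*P2rx4* and *P2rx7* are neighbours on chromosome 5 of GRCm38, on the plus strand and 16111 bases apart (GENCODE M21). *P2rx7* spans chr5:122643911-122691432 and *P2rx4* spans chr5:122707544-122729738. The stretches before the most upstream start of each gene are shown as a description (from RefSeq, GRCm38.p6, plus strand, written 5′ to 3′). No link between these sequences and the levels was tested. Capitals mark TGAGTCA, the reverse complement of the AP-1 motif TGACTCA.

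P2rx7, chr5:122643677-122643910: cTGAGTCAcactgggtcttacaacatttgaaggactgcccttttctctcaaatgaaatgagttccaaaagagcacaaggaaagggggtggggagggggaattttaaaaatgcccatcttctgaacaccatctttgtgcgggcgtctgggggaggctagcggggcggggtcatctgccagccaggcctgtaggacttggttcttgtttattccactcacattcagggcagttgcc
P2rx4, chr5:122707294-122707543: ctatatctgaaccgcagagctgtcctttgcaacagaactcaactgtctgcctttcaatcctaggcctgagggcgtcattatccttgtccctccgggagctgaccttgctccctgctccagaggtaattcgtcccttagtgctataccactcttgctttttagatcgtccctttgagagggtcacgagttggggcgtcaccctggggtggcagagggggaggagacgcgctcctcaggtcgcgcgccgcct

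The *P2rx4* stretch held none of the 6 motifs searched on both strands. These were the PU.1 core GAGGAAGT, the ETS core GGAAGT that it contains, AP-1, CRE (TGACGTCA), an IRF core, and TATAAA. AP-1 letters occur in 4.46% of 32851 RefSeq promoters of 250 bases. The PU.1, ETS, CRE, IRF, and TATAAA letters occur in 2.44%, 19.7%, 1.55%, 2.98%, and 12.4% of them. RefSeq promoters were found for 6 receptor genes and not for *P2rx2*, *P2rx3*, *P2rx5*, or *P2ry6*. None of those 6 held the PU.1, CRE, or IRF letters, and the ETS core was found before *P2ry12* and before 1 of 4 starts of *P2ry14*. AP-1 letters were also found before 1 of 4 starts of *P2ry14*, and TATAAA letters before *P2rx6* and before 1 of 4 starts of *P2ry14*. The stretch before another RefSeq start of *P2rx7*, chr5:122650133-122650382, held none of the 6 motifs. A match of letters is a description and not a binding site.

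*P2rx4* encodes a calcium-permeable channel of macrophages and microglia that is studied in nerve injury pain. It had 715, 778, and 672 counts with AAV5-*Gfp* and 1366, 922, and 920 with AAV5-*V1+V2*. The controls were tightly grouped, at 22.05 ± 0.468 CPM (SD, n = 3), and the AAV5-*V1+V2* libraries were all higher, at 41.5, 27.7, and 26.8 CPM. The log2 fold change was 0.54 ± 0.17 (SE) and the adjusted p 0.0670 (edgeR's quasi-likelihood test), above the threshold. Replicate 1 set much of the size and of the spread. Without it the log2 fold change was 0.31 and the adjusted p 0.0186, and without AAV5-*V1+V2* replicate 3 they were 0.66 and 0.0343. In the 4 fits without another library *P2rx4* did not pass, with adjusted p between 0.0798 and 0.188.

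*P2rx7* encodes the channel that opens at high ATP and drives release of interleukin-1β. Its counts were 1165, 1266, and 1093 with AAV5-*Gfp* and 1680, 1136, and 1392 with AAV5-*V1+V2*. The groups overlapped, since AAV5-*V1+V2* replicate 2, at 34.1 CPM, was below all 3 controls. The log2 fold change was 0.22 ± 0.14 (SE, adjusted p = 0.286, edgeR's quasi-likelihood test), and it was 0.06 without AAV5-*V1+V2* replicate 1 and 0.36 without AAV5-*V1+V2* replicate 2.

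*P2ry12* encodes the ADP receptor by which microglia and platelets respond to injury. It had 84, 98, and 140 counts with AAV5-*Gfp* and 102, 86, and 97 with AAV5-*V1+V2*. All 3 AAV5-*V1+V2* libraries and 2 controls lay between 2.58 and 3.10 CPM, and AAV5-*Gfp* replicate 3 was higher, at 4.49 CPM. The log2 fold change was -0.22 ± 0.23 (SE, adjusted p = 0.532, edgeR's quasi-likelihood test), and it ranged from -0.36 without AAV5-*Gfp* replicate 1 to 0.06 without AAV5-*Gfp* replicate 3, so no direction can be given. Of the 8 microglia-associated markers, *Siglech* (log2 fold change 2.26) and *Tmem119* (0.94) rose and the list's median was 0.24. Of the 7 platelet markers, 0 were called by edgeR's quasi-likelihood test, with 3 higher at an unadjusted p under 0.05 and a median of 0.59.

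*P2ry14*, a receptor for UDP-glucose, lies 62653 bases from *P2ry12* on chromosome 3. It had 17, 11, and 13 counts with AAV5-*Gfp* and 62, 31, and 17 with AAV5-*V1+V2*. Replicate 1 was highest, and replicate 3, at 0.496 CPM, was below the highest control at 0.527 CPM. With so few counts, the log2 fold change was 1.39 ± 0.51 (SE, adjusted p = 0.101, edgeR's quasi-likelihood test). It was 0.76 without AAV5-*V1+V2* replicate 1, and 1.75 with an adjusted p of 0.0264 without AAV5-*V1+V2* replicate 3.

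**Figure D3:**
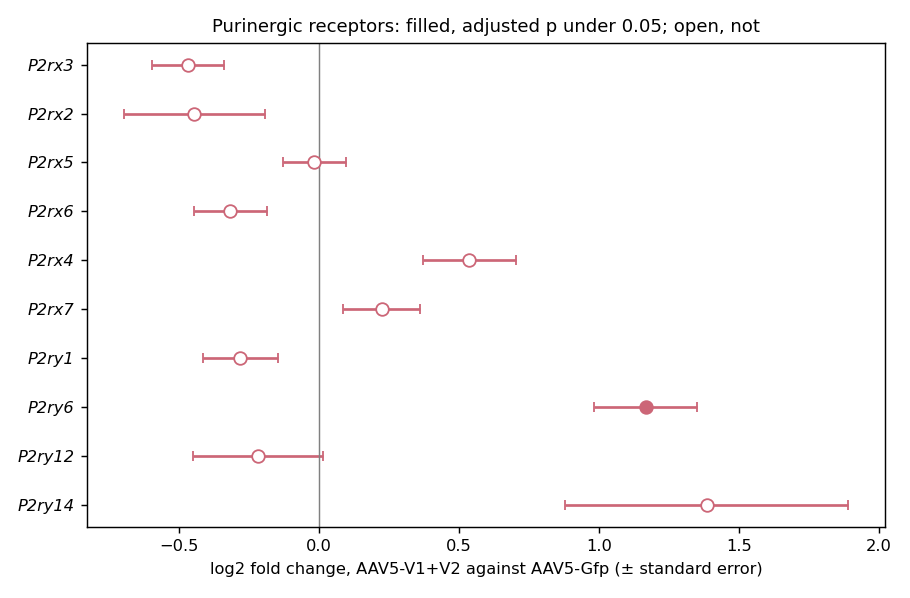
Log2 fold change of each receptor, AAV5-*V1+V2* against AAV5-*Gfp*, with bars for ± 1 standard error (edgeR's quasi-likelihood fit, 3 libraries per group). The filled symbol marks *P2ry6*, whose adjusted p was 0.0150. Open symbols are the other 9 receptors, from -0.47 for *P2rx3* to 1.39 for *P2ry14*.

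The macrophage markers had a median log2 fold change of 1.70, above that of every receptor. Per 1000 counts of these markers, *P2rx4* had 57.5, 61.2, and 64.7 counts with AAV5-*Gfp* and 20.4, 25.7, and 33.3 with AAV5-*V1+V2*. All AAV5-*V1+V2* values were below all controls, opposite to the order of the *P2rx4* levels themselves. *P2rx7* had 93.7, 99.6, and 105 counts per 1000 against 25.1, 31.6, and 50.4, likewise without overlap. *P2ry6*, the receptor that rose, had 15.6, 16.7, and 14.5 per 1000 against 7.73, 11.4, and 12.6. The log2 ratios were -1.21 for *P2rx4*, -1.48 for *P2rx7*, -0.56 for *P2ry6*, and -1.91 for *P2ry12*. Each gave p = 0.1 in the exact permutation test (n = 3 and 3) and 0.25 after adjustment over the 15 ratios. The marker sum itself rose without overlap, so a receptor whose level did not change also comes out lower on this scale. The test on these ratios cannot tell a change in the receptor from one in the markers. *P2ry14* had a log2 ratio of -0.53, and its groups overlapped.

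The marker sum itself was carried in part by *Lyz2*, the lysozyme gene of myeloid cells, and *Ptprc*, with 989 and 362 CPM in AAV5-*V1+V2* replicate 1 against 89.4 and 39.9 CPM in AAV5-*Gfp* replicate 1. Over the other 15 markers, a choice made after the values were seen, *P2ry6* had 23.5, 24.9, and 19.9 counts per 1000 with AAV5-*Gfp* and 23.0, 24.7, and 25.7 with AAV5-*V1+V2*. These groups overlapped. Against the geometric mean of all 17 markers, in which no gene dominates, the log2 ratio of *P2ry6* was -0.33 without overlap. Over the 15 markers, *P2rx4*, *P2rx7*, and *P2ry12* still lay below the controls in every library, with log2 ratios of -0.53, -0.82, and -1.25. *P2ry14* was then at 0.22 with overlap. Against the geometric mean, *P2rx4*, *P2rx7*, and *P2ry12* were at -0.98, -1.26, and -1.72 without overlap, and *P2ry14* was at -0.25 with overlap. The parts played by macrophage number and by RNA per cell in these values were not tested.

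*P2rx7* and *P2ry12* are also known from satellite glia, whose 10 markers had a median log2 fold change of -0.05, with 1 higher. Their sum ranged between 2811 and 3149 CPM with AAV5-*Gfp* and between 2716 and 3127 CPM with AAV5-*V1+V2*. The 8 markers of myelinating Schwann cells had a median of 0.08 and 0 were called by edgeR's quasi-likelihood test, with 1 higher at an unadjusted p under 0.05. Both glial sums overlapped between the groups, as did the levels of *P2rx7* and *P2ry12*.

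**Figure D4:**
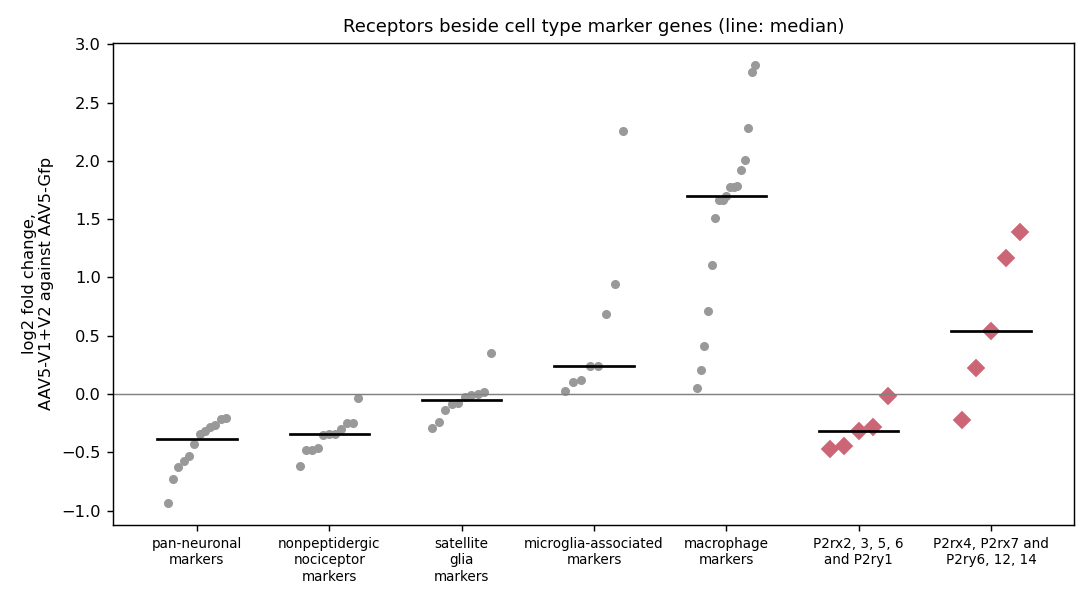
Log2 fold changes, AAV5-*V1+V2* against AAV5-*Gfp*, of single marker genes (grey circles) and of the receptors (red diamonds), with a line at each median. The receptors known from neurons lie in the range of the neuronal markers or nearer 0, and those known from myeloid cells and glia lie below the macrophage median of 1.70.

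The balance between receptors was next read from counts within each library, which no normalization touches. These 7 ratios were chosen after the values were seen. In AAV5-*Gfp* DRGs there were 0.400, 0.343, and 0.332 counts of *P2rx4* for each count of *P2rx3*, and in AAV5-*V1+V2* DRGs 1.14, 0.563, and 0.551. Thus *P2rx4* was below *P2rx3* in 5 libraries and above it in AAV5-*V1+V2* replicate 1. For *P2ry6* there were 0.108, 0.0936, and 0.0745 counts per count of *P2rx3* against 0.432, 0.250, and 0.208. The groups did not overlap in 6 of the 7 ratios, each with p = 0.1 in the exact permutation test (n = 3 and 3) and 0.117 after adjustment. For *P2rx4* and *P2ry6* per *P2rx3* this was set in advance, as their levels already lay above the controls and those of *P2rx3* below. The share of ratios without overlap over all genes was not computed, so this count is a description only.

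The ratio of *P2rx4* to its neighbour *P2rx7* was 0.614, 0.615, and 0.615 among the controls. At 672 to 778 counts of *P2rx4* in these libraries, counting error alone is larger than such differences, so their closeness may be accidental. With AAV5-*V1+V2* the ratio was 0.813, 0.812, and 0.661, above the controls in each library and nearest to them in replicate 3. Without AAV5-*V1+V2* replicate 1 the mean of this ratio was 0.736, so its size did not rest on that library. The ratio of *P2rx6* to *P2rx3* overlapped between the groups, with means of 0.491 and 0.540 (exact permutation test, p = 0.3, n = 3 and 3).

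**Figure D5:**
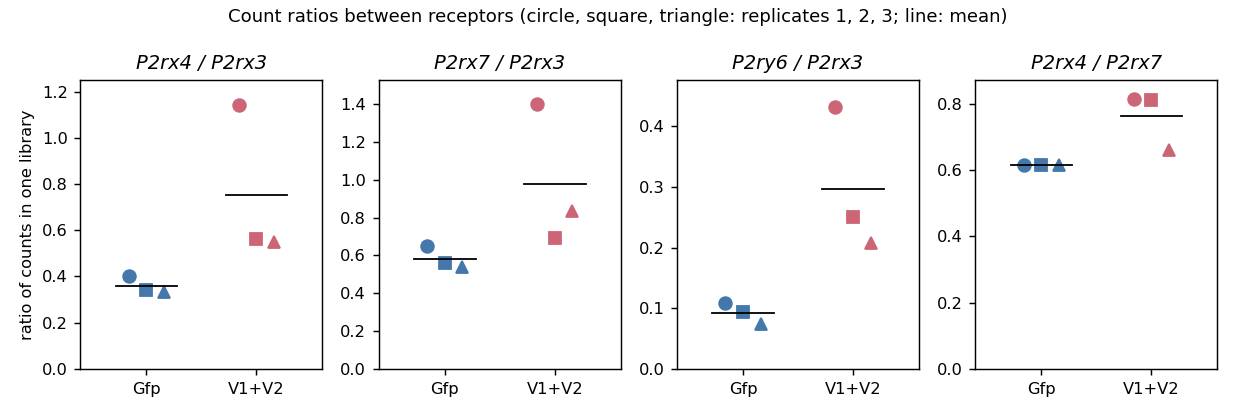
Ratios of raw counts between receptors within 1 library (linear axes from 0), with AAV5-*Gfp* in blue and AAV5-*V1+V2* in red. Symbols mark replicates 1, 2, and 3 and lines mark means (n = 3). Every AAV5-*V1+V2* library lies above the controls in all 4 ratios, and replicate 1 is far above the others for *P2rx4*, *P2rx7*, and *P2ry6* per *P2rx3*.

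The summed level of the 10 receptors differed little, at 204.2, 217.1, and 214.1 CPM with AAV5-*Gfp* and 204.8, 202.9, and 203.3 CPM with AAV5-*V1+V2*. Its makeup differed. *P2rx3*, *P2rx6*, and *P2ry1* together took 62.4%, 64.4%, and 64.9% of this sum in the controls and 40.9%, 57.3%, and 55.9% with AAV5-*V1+V2*. *P2rx4*, *P2rx7*, and *P2ry6* together took 31.5%, 30.0%, and 28.7% against 52.9%, 36.5%, and 38.1%. In AAV5-*V1+V2* replicate 1 alone, the second trio held the larger share. The trios hold only a part of the receptors known from each cell type. They leave out *P2rx2* and *P2rx5* of the neuronal genes, with log2 fold changes of -0.45 and -0.02. Also left out are *P2ry12* and *P2ry14* of the myeloid genes, with -0.22 and 1.39. These shares are a description and were not tested.

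Levels of different genes were compared per kilobase of exon (GENCODE M21), for which *P2rx3* came first in both groups, at 22.2 ± 2.02 and 16.04 ± 2.61 CPM per kilobase (SD, n = 3). In AAV5-*Gfp* DRGs it was followed by *P2ry1* (10.1 CPM per kilobase), *P2rx6* (7.56), *P2rx7* (6.01), *P2rx4* (3.14), *P2rx5* (3.002), *P2ry6* (1.96), *P2ry12* (1.30), *P2rx2* (0.749), and *P2ry14* (0.0380). Of these neighbours, *P2rx4* and *P2rx5* overlapped in their library ranges, as did *P2ry6* and *P2ry12*. In AAV5-*V1+V2* DRGs *P2rx7* (7.02 CPM per kilobase) stood before *P2rx6* (6.06), and *P2ry6* (4.40) before *P2rx5* (2.97), next to *P2rx4* (4.56). The ranges of *P2ry1*, *P2rx7*, *P2rx6*, and *P2rx4* overlapped there between neighbours, as did those of *P2rx4* and *P2ry6*.

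Other genes of purinergic signalling were read from a list of 47 symbols, of which 45 were in the table and 40 were tested. By edgeR's quasi-likelihood test 13 rose and 2 fell, with a median log2 fold change of 0.26. Over all genes tested, 10.1% rose and 5.27% fell, with a median of -0.0003. The same shares stand beside the counts for parts of this list below. The calls on the list were sensitive to the libraries kept. Of the list, 0 passed without AAV5-*Gfp* replicate 2, 0 without replicate 3, 1 passed without AAV5-*Gfp* replicate 1, and 7 passed without AAV5-*V1+V2* replicate 2, higher in each case. Over all genes, 12, 15, 257, and 1020 were then higher, in the same order of libraries left out. Among the other P2 receptors, *P2ry10*, a lymphocyte receptor for lysophosphatidylserine despite its name, had 29, 17, and 12 counts with AAV5-*Gfp* and 577, 288, and 160 with AAV5-*V1+V2*. It rose by a log2 fold change of 4.11 ± 0.57 (SE, adjusted p = 0.0144, edgeR's quasi-likelihood test). B, plasma, and T cell markers also rose, as given above, and their part in the *P2ry10* result was not tested. *P2rx1*, the channel of smooth muscle and platelets, and *P2ry2*, a receptor for ATP and UTP, had log2 fold changes of 0.35 and -0.02 with adjusted p of 0.447 and 0.906, and *P2rx1* was at 0.070 without AAV5-*V1+V2* replicate 1.

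*P2ry13*, another ADP receptor of myeloid cells, had too few counts for the test. There were 0, 2, and 1 counts with AAV5-*Gfp* and 25, 7, and 4 with AAV5-*V1+V2*. The mean AAV5-*V1+V2* level was 3.94 times a floor of 3 counts in each control library, and 1.78 times it without AAV5-*V1+V2* replicate 1. The floor allows for counting error in the controls only, so these values are not lower bounds. *P2ry4*, a receptor for UTP, had at most 3 counts in any library.

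The adenosine receptors respond to the end product of ATP breakdown. None of the 3 tested was called by edgeR's quasi-likelihood test, 1 had an unadjusted p under 0.05, and DESeq2 called that gene, *Adora2a*. It had 91, 101, and 85 counts with AAV5-*Gfp* and 297, 152, and 134 with AAV5-*V1+V2*, without overlap (log2 fold change 1.05 ± 0.31, SE, adjusted p = 0.0619, edgeR's quasi-likelihood test). Leaving out AAV5-*V1+V2* replicate 1 gave *Adora2a* 0.59 with an adjusted p of 0.0378, and leaving out replicate 3 gave 1.28 with 0.0248. *Adora1*, which dampens transmission in sensory neurons, and *Adora2b* had values of -0.29 and 0.26, and of -0.11 and 0.087 without AAV5-*V1+V2* replicate 1.

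Of 7 genes of ATP release, 2 rose and 1 fell. *Slc17a9*, the transporter that loads ATP into vesicles, rose by 1.42 ± 0.24 on the log2 scale (SE), and *Calhm2*, of a family of large-pore channels, by 0.53 ± 0.10. *Panx2*, a pannexin of neurons, had 314, 350, and 350 counts with AAV5-*Gfp* and 175, 251, and 253 with AAV5-*V1+V2*, and fell by 0.62 ± 0.15 on the log2 scale. *Panx1*, the pannexin through which ATP leaves many cells, had a log2 fold change of 0.14 (adjusted p = 0.280, edgeR's quasi-likelihood test).

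Of 15 genes that break down extracellular nucleotides or handle adenosine, 3 rose and 1 fell. The nucleoside transporter gene *Slc28a2* (log2 fold change 2.61), the purine nucleoside phosphorylase gene *Pnp* (0.54), and the adenosine deaminase gene *Ada* (0.67) rose. *Entpd3*, an ectonucleotidase of sensory neurons, had 2424, 2638, and 2516 counts against 1488, 2043, and 2145, and fell by 0.45 ± 0.12 on the log2 scale (adjusted p = 0.0483, edgeR's quasi-likelihood test). *Acpp*, a nociceptor enzyme that turns AMP into adenosine, had a value of -0.43 (adjusted p = 0.0745), and *Entpd1*, the CD39 ectonucleotidase of immune cells, one of 0.49 (adjusted p = 0.0717). Without AAV5-*V1+V2* replicate 1, *Acpp* passed at -0.28 (adjusted p = 0.0410) and *Entpd1* was at 0.31. Without AAV5-*V1+V2* replicate 3, both passed, at -0.55 and 0.63. These 2 were chosen after their values were seen.

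Genes of the inflammasome, the complex that P2X7 activates, included 5 of 8 that rose and 0 that fell by edgeR's quasi-likelihood test, with none lower at an unadjusted p under 0.05. *Gsdmd*, whose product forms the pore through which interleukin-1β leaves, had 156, 165, and 146 counts with AAV5-*Gfp* and 748, 403, and 369 with AAV5-*V1+V2* (log2 fold change 1.67 ± 0.28, SE, adjusted p = 0.0168). *Casp1* (0.66), *Txnip* (0.51), *Pycard* (0.98), and *Il1b* (3.06) were the other 4. *Il1b* had 18, 25, and 27 counts against 363, 179, and 52, with replicate 1 highest. Values for *Nlrp3*, the sensor, and *Il18* were 0.26 and 0.47, short of the threshold. *P2rx7* itself did not pass the test.

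Of 4 genes placed around P2X4, the transcription factor genes *Irf8* and *Irf5*, which act upstream of *P2rx4* in spinal microglia, rose by 2.56 and 1.31 on the log2 scale. *Irf8* had 54, 54, and 32 counts with AAV5-*Gfp* and 437, 236, and 169 with AAV5-*V1+V2*. *Bdnf*, the growth factor that P2X4-bearing microglia release, had 452, 509, and 582 counts against 300, 492, and 527, with overlapping groups (log2 fold change -0.27, and -0.060 without AAV5-*V1+V2* replicate 1). *Fn1*, the matrix protein fibronectin, had 5254, 5800, and 3864 counts against 5997, 5780, and 6739, without overlap in CPM (log2 fold change 0.28 ± 0.12, SE, adjusted p = 0.147, edgeR's quasi-likelihood test), and 0.16 without AAV5-*Gfp* replicate 3. Many of the genes that rose in these lists are known from leukocytes. Markers of several leukocyte types rose with them, and the part of leukocytes in these results was not tested.

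The genes whose levels followed a receptor most closely were sought among 14547 genes outside the lists whose mean log2 CPM was 1 or more, by Pearson's r of log2 CPM over the 6 libraries. They were *Eml1*, 4732491K20Rik, and *Nectin3* for *P2rx3* (r of 0.999 for each after rounding). For *P2ry6* they were *Cpsf4*, *Snrpg*, and *Unc119b* (r of 0.999, 0.998, and 0.998). For *P2rx7* they were *Txndc16*, *Lrba*, and *Slc22a4* (0.993, 0.988, and 0.985), and for *P2ry12* they were 4933406C10Rik, *Rmnd1*, and Gm37168 (0.992, 0.989, and 0.989). Over 6 points that share 2 groups such values are common, as 787 genes passed 0.95 with *P2rx3* and 1271 with *P2ry6*, but 33 with *P2rx7* and 23 with *P2ry12*.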

How the data were processed

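RNA of microinjected DRGs was sequenced from stranded total RNA libraries (3 per group). The authors deposited raw counts of reads per gene symbol, without normalization. The submitters' processing notes name the builds GRCm38 and mm10. The aligner, counter, annotation, and strand setting are not given in the sources used here. Groups came from the sample titles.

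The members and gene lists were chosen with earlier results of these data known. The counts were read into edgeR 4.0.16 (R 4.3.3). The filterByExpr function kept 18593 genes, TMM factors were applied, and the quasi-likelihood test (glmQLFit, glmQLFTest) compared the groups with no covariate. An adjusted p under 0.05 (Benjamini-Hochberg) was the threshold. Standard errors came from the coefficient and its F statistic. No pair of libraries agreed within sampling noise. The calculations were tested on simulated data.

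The named genes were all 10 receptors, the 3 genes with the smallest adjusted p of each pathway list and those needed for its counts, at most 3 of each marker list, and the 3 genes most like *P2rx3*, *P2rx7*, *P2ry6*, and *P2ry12*. Genes outside this rule were *Panx1*, *Nlrp3*, *Il18*, *Acpp*, *Entpd1*, *Bdnf*, *Lyz2*, *P2ry13*, *P2ry4*, and *Sox11*, chosen after their values were seen. Alternatives covered RLE, upper quartile, and total counts, 2 other filters, DESeq2 1.42.0, limma-voom (limma 3.58.1), the replicate number as a block, robust empirical Bayes, further thresholds, and each library left out in turn. The unadjusted threshold, the ratios between receptors, and the macrophage list without *Lyz2* and *Ptprc* were added after the data were seen. Gene positions were taken from GENCODE M21. Identity between the receptor proteins was not analysed here. A named marker gene is not reported here.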

Additional observations from a re-analysis of the deposited data

How the results depend on the processing

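Of the 10 receptors, *P2ry6* kept its direction in all 15 other fits and its call in 12 of them. Among the receptors, 1 was lower with RLE size factors, upper quartile normalization, no filter on low counts, DESeq2, robust empirical Bayes, or an adjusted p under 0.1, in place of 0. Without the filter, with DESeq2, or at an adjusted p under 0.1, 2 were higher in place of 1, and at an unadjusted p under 0.05 the counts were 3 higher and 2 lower. On the pathway list, 1 gene in place of 2 was lower with total counts or limma-voom, and 4 with DESeq2, an adjusted p under 0.1, or an unadjusted p under 0.05. Requiring a 2-fold change left 7 higher and 0 lower there, where 13 and 2 passed without it. Over all genes, 1872 higher and 980 lower became 2405 and 1606 with DESeq2, 2898 and 2030 at an adjusted p under 0.1, 1052 and 47 with a 2-fold change, and 3577 and 2878 at an unadjusted p under 0.05. The cause of the other differences than those of the thresholds was not tested.

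Leaving out 1 library gave between 12 and 2474 higher and between 0 and 1446 lower genes, between 0 and 3 higher and 0 and 1 lower receptors, and between 0 and 15 higher and 0 and 4 lower pathway genes. The lowest counts came without AAV5-*Gfp* replicate 2, where edgeR's quasi-likelihood test still gave 2916 higher and 2029 lower genes at an unadjusted p under 0.05. The sign of the log2 fold change turned for 3 genes near 0. *P2rx5* was at 0.040 with total counts, and between -0.078 (without AAV5-*Gfp* replicate 3) and 0.021 (without AAV5-*V1+V2* replicate 1) with a library left out. *P2ry12* lay between -0.36 and 0.062, the latter without AAV5-*Gfp* replicate 3. *P2ry2* was at 0.040 with total counts, and between -0.070 and 0.031 with a library left out.

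Deviations of same-numbered libraries correlated at 0.052, 0.0701, and 0.165, not all over 0.1 but all positive. The last was the highest of all pairs between the groups, whereas AAV5-*Gfp* replicate 2 correlated best with AAV5-*V1+V2* replicate 1, at 0.0845. The labels give a shared number and no pairing, and whether same-numbered libraries were handled together was not tested. With a replicate block, 2118 genes were higher and 1341 lower, 2 receptors were higher (*P2ry6* and *P2rx4*) and 1 lower (*P2rx3*), and 13 pathway genes were higher and 4 lower. Precision was limited by 3 libraries per group, and for *P2ry14* and *P2rx2* by counts below 100. Per macrophage marker count, *P2ry6* and *P2ry14* moved from log2 ratios of -0.56 and -0.53 to 0.10 and 0.22 when *Lyz2* and *Ptprc* were left out.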

Other observations

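Markers of nerve injury in neurons and glia, and of tissue around the ganglion, showed further differences. *Atf3*, an injury-induced transcription factor, had 435, 418, and 413 counts with AAV5-*Gfp* and 812, 850, and 567 with AAV5-*V1+V2*, a log2 fold change of 0.78 ± 0.17 (SE, adjusted p = 0.0269, edgeR's quasi-likelihood test). *Csf1*, the growth factor by which injured neurons recruit macrophages and microglia, had 481, 504, and 442 counts against 848, 720, and 618 (log2 fold change 0.58 ± 0.13, SE, adjusted p = 0.0301, edgeR's quasi-likelihood test). These 2 were the called genes among 8 injury markers, whose median was 0.51. Of the 8, 7 had a positive log2 fold change. *Sox11* went the other way without overlap in CPM (log2 fold change -0.23 ± 0.12, SE, adjusted p = 0.203, edgeR's quasi-likelihood test). Of 6 fibroblast markers, 2 rose, with a median of 0.64. The 6 skeletal muscle markers summed to 78.6, 1017, and 403 CPM with AAV5-*Gfp* and 318, 128, and 33.4 CPM with AAV5-*V1+V2*, and 0 were called by edgeR's quasi-likelihood test, with 0 at an unadjusted p under 0.05.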
